A study of Bos taurus with 8 samples.

Results

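The genes described here encode proteins of the junctions that hold granulosa cells together and connect them. They are the connexins *GJA1* (connexin 43), *GJA4* (connexin 37) and *GJC1* (connexin 45), the cadherins *CDH1* (E-cadherin) and *CDH2* (N-cadherin), the catenins *CTNNB1* (β-catenin) and *CTNNA1* (α-catenin), and *TJP1* (the scaffold ZO-1). They were chosen by symbol, and each of the 8 matched 1 row of the table, which lists 26804 genes. All 8 were among the 13046 genes that could be tested between seasons.

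Granulosa cells line the ovarian follicle and surround the oocyte. Connexins assemble into channels between neighbouring cells, through which ions, cyclic nucleotides and metabolites pass among granulosa cells and, by way of the cumulus cells, to the oocyte. Cadherins hold the membranes of neighbouring cells together in adherens junctions, β-catenin binds the cadherin tail, and α-catenin links that complex to actin. β-catenin also acts in the nucleus as the effector of WNT signaling, and ZO-1 anchors tight junction and gap junction proteins to the cytoskeleton.

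RNA was measured in Summer and Winter granulosa cells from a group of non-lactating, multiparous *Bos taurus* crossbred beef cows that was sampled in both seasons. No treatment other than the season differed between groups, and the labels do not say which cows each library held. In both seasons, follicles were stimulated with FSH under a 5-day CIDR (intravaginal progesterone) protocol and emptied by ovum pick-up (OPU), and cells were pelleted from the fluid of each cow with no sorting step in the methods. Each library held RNA of 2 cows, and the 4 summer libraries carry the replicate numbers 1, 2, 3 and 5 and the 4 winter libraries 1, 3, 4 and 5. Each season was 1 OPU session, in August for summer and in January (labels) or February (methods) for winter, which means that the effect of season and that of the session cannot be told apart. The p-values below measure the spread between pools. No strain beyond the cross, age or pool membership was used here.

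Values are TPM, the share of each gene among all transcripts after division by transcript length. Messages of the mitochondrial genome took 50.7% to 87.7% of TPM in summer and 85.1% to 92.0% in winter, so levels are given as scaled TPM. For these, the 13 mitochondrial messages were left out, the other genes were set to the same total in every library, and a library factor (trimmed mean of M-values, TMM) was applied. The 14 granulosa cell markers were all detected in every library, and their summed level was 44218 to 95016 scaled TPM in summer and 32076 to 40915 in winter. The other way round, 12 leukocyte markers summed to 165 to 363 in summer and 743 to 1502 in winter, and all 12 were called lower in summer. Smooth muscle markers summed to 28.8 to 95.4 in summer and 141 to 204 in winter, fibroblast markers to 184 to 339 and 373 to 1145, and red cell markers to 39.0 to 98.9 and 566 to 42418. The summed levels of these 4 lists did not overlap between seasons and were higher in winter. The fibroblast list did not move as a whole, with a median log2 fold change (summer minus winter) of -0.10. Of its 9 genes, 4 were called lower in summer and 1 higher, in all 55.6% of them, beside 12.8% of all tested genes. The part of the 4 lists in the results below was not tested except where a value is given. In bulk RNA, fewer cells of a type and less RNA per cell cannot be told apart.

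The connexin *GJA1* and the cadherin *CDH2* were several times higher in summer. The connexin *GJC1*, a low gene, had season means at a ratio of 2.79, but passed the 2-fold bound by little once 1 was added to each value. *CDH1*, *GJA4*, *CTNNB1*, *CTNNA1* and *TJP1* did not pass the test. A gene was called when limma gave both a change of 2-fold or more on the log2(scaled TPM + 1) scale and an adjusted p no greater than 0.05. Its zFPKM, a score of each gene's level within a library, also had to exceed -3 in every library of the season where it was higher. By this rule 3 of the 8 genes, which were chosen with earlier results of these data known, were called higher in summer. This was 37.5% of them, beside 6.14% of all tested genes. None was called lower, beside 6.67% of all tested genes, and in both directions together 12.8% were called. At an unadjusted p under 0.05 in limma, 5 of the 8 were higher and 1, *CDH1*, was lower. The seasons did not overlap in 3 of the 8 genes, beside 24.3% of all tested genes. The median log2 fold change (summer minus winter) was 0.69 over the 8 genes and 0.03 over all tested genes.

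**Figure D1:**
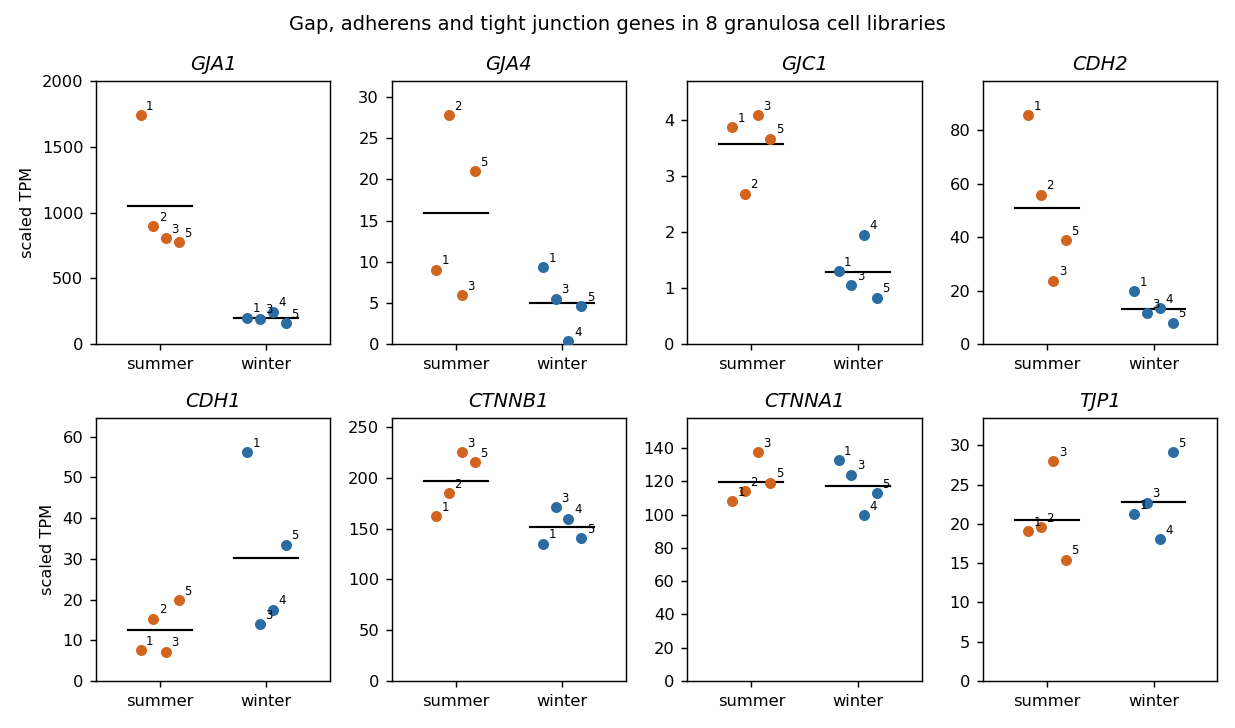
Scaled TPM (vertical axes, each from 0) of the 8 junction genes in the 4 summer (orange) and 4 winter (blue) libraries, 1 point per library with its replicate number and a bar at the season's mean. *GJA1*, *GJC1* and *CDH2* have every summer point above every winter point, with *GJA1* at 777 to 1741 in summer and 159.9 to 249 in winter, while the seasons overlap in the other 5 genes.

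*GJA1* (ENSBTAG00000001835) encodes connexin 43, the main gap junction protein among granulosa cells. It stood at 1741, 897, 805 and 777 scaled TPM in the summer libraries, in the order of replicates 1, 2, 3 and 5, and at 202, 195, 249 and 159.9 in the winter libraries, in the order 1, 3, 4 and 5, which holds below too. Every summer library was above every winter library, and summer replicate 1 was far above the other 3, which lay close together. The means were 1055 ± 460.1 (SD, n = 4) and 201 ± 36.5 (SD, n = 4), a ratio of 5.24. In limma the log2 fold change was 2.31 (standard error 0.25, 95% interval 1.77 to 2.86, adjusted p = 0.000762), and 0.29% of all tested genes had a larger one. The gene was called higher in all 21 alternative analyses, and with each library left out in turn its log2 fold change was 2.05 to 2.43. On the TPM values as deposited it was at 938, 288, 118 and 196 in summer and at 15.2, 25.9, 24.8 and 15.4 in winter, so the seasons were apart there too.

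Part of the granulosa cell markers were also higher in summer. Of the 14, 7 were called higher, none was called lower (at an unadjusted p under 0.05 in limma, 9 were higher and 1, *FOXL2*, was lower) and none was at 0 in any library, with a median log2 fold change of 0.87. Calls were 50% of these markers, beside 12.8% of all tested genes. The marker sum rests mainly on *INHA*, *GSTA1*, *SERPINE2*, *INHBA* and *FST*, and all of these but *GSTA1* were called higher in summer. The sum is thus no even measure of the 14 markers. Set against it, a comparison chosen after the values were seen, *GJA1* had 18.3, 11.3, 18.2 and 9.90 scaled TPM per 1000 of the marker sum in summer. In winter it had 6.31, 4.76, 7.70 and 4.27. The summer libraries were still above all winter libraries, at 14.4 ± 4.46 (SD, n = 4) and 5.76 ± 1.56 (SD, n = 4) per 1000.

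*GJA4* (ENSBTAG00000013881) encodes connexin 37, which in the mouse forms the channels at the oocyte surface. Its levels were 9.06, 27.8, 5.96 and 21.02 scaled TPM in the summer libraries and 9.33, 5.55, 0.333 and 4.62 in the winter libraries. Summer replicates 2 and 5 were above all others, but summer replicates 1 and 3 lay within the winter range, and winter replicate 4 was close to none. The means were 16.0 ± 10.2 (SD, n = 4) and 4.96 ± 3.70 (SD, n = 4). The log2 fold change was 1.61 with a 95% interval of 0.22 to 3.0, and the adjusted p in limma was 0.0916. With each library left out it ran from 1.01 (without winter replicate 4) to 1.99 and was never called. It passed the call where the TMM factor was left out (1.84, adjusted p = 0.0398), a scale that moved the median of all tested genes from 0.03 to 0.28, and on the deposited TPM.

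Oocyte messages were low and had a higher sum in summer. The 12 oocyte markers summed to 12.03 to 20.1 scaled TPM in summer and 0.916 to 2.52 in winter, with 10 or 11 of them above 0 in each summer library and 2 or 3 in each winter library. *ZP2*, *ZP4*, *DPPA3* and *NPM2*, named after their values were seen, were at 0 in all winter libraries. Their summer means were also low, at 0.444 (*ZP4*) to 1.76 (*ZP2*) scaled TPM, and the depth of each library is unknown. In the summer libraries the sum was 15.7, 13.8, 12.03 and 20.1, beside 9.06, 27.8, 5.96 and 21.02 scaled TPM of *GJA4*. In the winter libraries it was 1.26, 0.916, 2.52 and 1.73, beside 9.33, 5.55, 0.333 and 4.62 of *GJA4*. Winter replicate 4 had the highest winter sum and the lowest *GJA4*, but that sum rests on 2 genes above 0 and all these values are low. The part of oocyte messages in the level of *GJA4* was not tested.

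*GJC1* (ENSBTAG00000004036) encodes connexin 45, a connexin best known from the conduction system of the heart. It was the lowest of the 8 genes in both seasons. Summer libraries had 3.87, 2.68, 4.08 and 3.66 scaled TPM and winter libraries 1.299, 1.05, 1.95 and 0.826. The groups did not overlap, and the lowest summer library, replicate 2, was above the highest winter one, replicate 4. Its means were 3.57 ± 0.617 (SD, n = 4) and 1.28 ± 0.485 (SD, n = 4). The log2 fold change was 1.02 (standard error 0.26, 95% interval 0.44 to 1.59, adjusted p = 0.0205 in limma), just past the 2-fold bound, and the added 1 compresses the change of so low a gene. The call was lost in 9 of the 20 alternatives that tested this gene. Among these were leaving out summer replicate 1 (0.98, adjusted p = 0.0635), summer replicate 3 (0.95), summer replicate 5 (0.997, adjusted p = 0.0509), winter replicate 3 (0.98) or winter replicate 5 (0.92, adjusted p = 0.0560). Per 1000 of the granulosa marker sum it had 0.0338 to 0.0922 scaled TPM in summer and 0.0221 to 0.0603 in winter, and the seasons overlapped.

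Among the connexin genes, *GJA1* made up nearly all of the measured level. Of the summed TPM of 19 connexin genes it held 97.5% ± 1.502 (SD, n = 4) in summer against 94.0% ± 2.28 (SD, n = 4) in winter. *GJA4* held 1.71% and 2.43%, and *GJC1* held 0.365% and 0.585%. The change in total connexin message between seasons was thus close to that of *GJA1*. The log2 ratio of *GJC1* to *GJA1* within a library differed by -0.79 (summer minus winter, exact permutation test over 70 assignments, two-sided p = 0.0286, adjusted p = 0.0762 over 8 ratios). The ratio of *GJA1* to *GJA4* was 74.6 in summer and 66.6 in winter (geometric means of 4 libraries each, exact p = 0.886), but its log2 difference of 0.16 was 1.32 without winter replicate 4. With 4 libraries against 4, 0.0286 is the smallest p this test can give. A single ratio at that p cannot pass 0.05 after adjustment over 8 ratios, and none of the 8 passed.

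The other connexins and pannexins were few and low. Of 21 listed, 19 were in the table, 8 were at 0 in every library and 5 could be tested. None was called in either direction by limma, beside 12.8% of all tested genes. At an unadjusted p under 0.05 in limma, 1 was lower and none higher, and the median log2 fold change was -0.14. The highest were *PANX1*, a pannexin channel, at 4.24 ± 1.26 (SD, n = 4) scaled TPM in summer against 5.599 ± 2.74 (SD, n = 4) in winter, and *GJB5* (connexin 31.1), at 1.31 ± 1.26 (SD, n = 4) and 3.73 ± 1.87 (SD, n = 4).

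**Figure D2:**
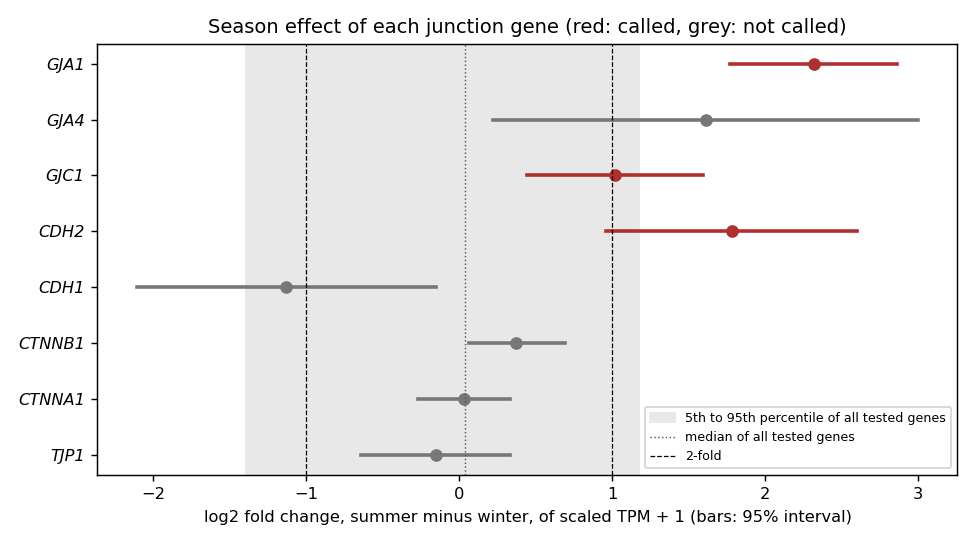
Log2 fold change (summer minus winter, horizontal axis, on the scaled TPM + 1 scale) of each of the 8 genes with its 95% interval from limma, in red where the gene was called and grey where not. Grey shading spans the 5th to 95th percentile of all tested genes, -1.40 to 1.17, and *GJA1* (2.31), *CDH2* (1.78) and *GJA4* (1.61) lie to its right, the last 2 with intervals that reach into it.

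*CDH2* (ENSBTAG00000021190) encodes N-cadherin, the classical cadherin of granulosa cells. Its levels were 85.7, 56.0, 23.8 and 38.9 scaled TPM in the summer libraries and 19.9, 11.6, 13.5 and 8.08 in the winter libraries. All summer libraries were above all winter libraries, but summer replicate 3 was close to winter replicate 1. The means were 51.1 ± 26.5 (SD, n = 4) and 13.3 ± 4.94 (SD, n = 4). In limma the log2 fold change was 1.78 (standard error 0.37, 95% interval 0.96 to 2.60, adjusted p = 0.00868), and it stayed called with any single library left out, at 1.49 to 2.09.

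In summer the level of *CDH2* ran opposite to the share of mitochondrial messages, which was 50.7%, 68.4%, 77.7% and 87.7% in replicates 1, 2, 5 and 3. *GJA1* ran nearly so, at 1741, 897, 777 and 805 in that order. In winter the share was 92.0%, 85.1%, 88.5% and 89.5% in replicates 1, 3, 4 and 5, and *CDH2* was highest where the share was highest. With that share as a covariate, the log2 fold change of *CDH2* was 1.01 (adjusted p = 0.163) and the call was lost, while that of *GJA1* was 1.77 (adjusted p = 0.0136) and the call was kept. The share itself was lower in 3 of the 4 summer libraries than in any winter library, so season and share are partly confounded in this fit. Only 99 genes were called higher and 169 lower in it, against 801 and 870 without the covariate. Per 1000 of the granulosa marker sum, *CDH2* had 0.901, 0.704, 0.537 and 0.495 scaled TPM in summer and 0.619, 0.285, 0.418 and 0.216 in winter, where winter replicate 1 lay within the summer range.

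*CDH1* (ENSBTAG00000015991) encodes E-cadherin, the cadherin of most epithelia. It stood at 7.54, 15.3, 7.13 and 19.8 scaled TPM in the summer libraries and at 56.2, 13.9, 17.5 and 33.5 in the winter libraries. Winter replicates 1 and 5 were above every summer library, while winter replicates 3 and 4 lay within the summer range. The means were 12.4 ± 6.18 (SD, n = 4) and 30.3 ± 19.3 (SD, n = 4). The log2 fold change was -1.13 with a 95% interval of -2.11 to -0.15, and the adjusted p in limma was 0.0933, so the gene was not called. On the deposited TPM the sign turned, at 0.27, a scale on which the median of all tested genes was 0.89.

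Markers of surface and duct epithelium were summed beside *CDH1*. The 11 epithelial markers in the table, of 12 listed, summed to 757, 1541, 661 and 1304 scaled TPM in summer and to 4245, 1455, 1915 and 2775 in winter. Of the 10 tested, 1 (*EPCAM*) was called higher in summer and 4 (*KRT7*, *KRT19*, *UPK3B* and *MSLN*) lower. In either direction this was 50% of them, beside 12.8% of all tested genes. The list did not move as a whole: its median log2 fold change was 0.12, against -1.13 for *CDH1*, and the sum rests mainly on *KRT8*, *KRT18*, *KRT19* and *MSLN*. Per 1000 of that sum, *CDH1* had 9.96, 9.93, 10.8 and 15.2 scaled TPM in the summer libraries and 13.2, 9.55, 9.15 and 12.1 in the winter libraries. These seasons overlapped almost fully, with means of 11.5 ± 2.52 (SD, n = 4) and 11.0 ± 1.97 (SD, n = 4). This comparison was chosen after the values were seen and depends on the few genes that dominate the sum. The part of epithelial cells in the level of *CDH1* was not tested.

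**Figure D3:**
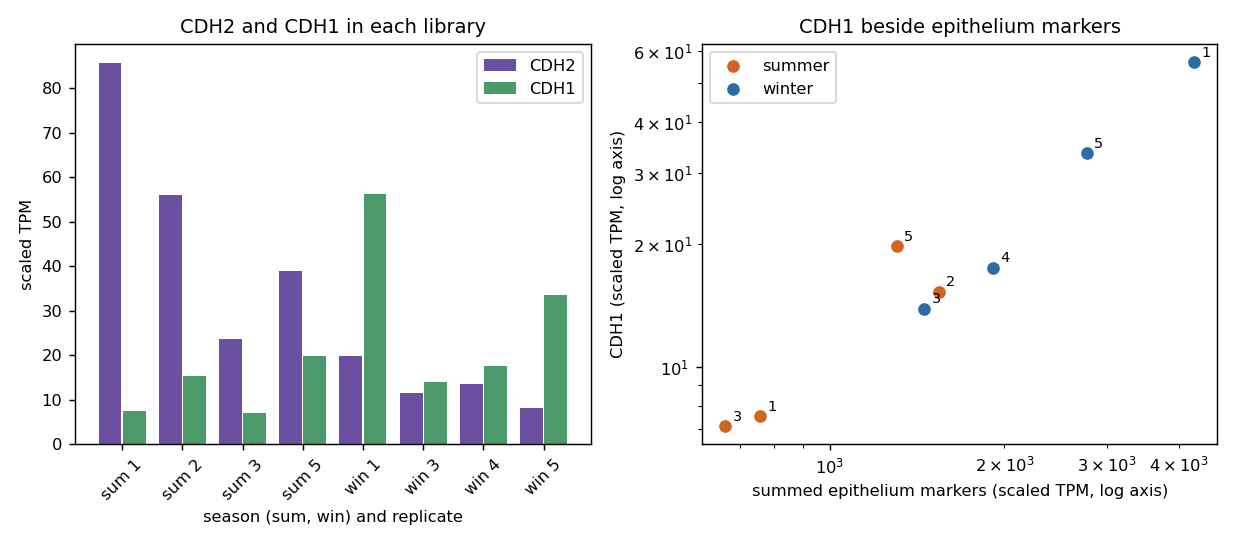
Left, scaled TPM of *CDH2* (purple bars) and *CDH1* (green bars) in each library, with *CDH2* the taller bar in the 4 summer libraries and *CDH1* in the 4 winter libraries. Right, *CDH1* against the summed epithelial markers (both scaled TPM on log axes, numbers are replicates), where winter replicate 1 is highest in both at 56.2 and 4245 and summer replicate 3 lowest in both at 7.13 and 661.

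The more abundant of both cadherins was *CDH2* in every summer library and *CDH1* in every winter library, a difference that missed the threshold once adjusted over the 8 ratios. Within a library, which takes any scaling out, *CDH2* was 11.4, 3.66, 3.33 and 1.96 times *CDH1* in the summer libraries. In the winter libraries it was 0.353, 0.838, 0.771 and 0.241 times *CDH1*, so *CDH2* was above *CDH1* in 4 of 4 summer libraries and in none of 4 winter libraries. The geometric means were 4.06 and 0.484, a log2 difference of 3.07 (two-sided exact permutation test, p = 0.0286, adjusted p = 0.0762). *CDH2* made up 78.4% ± 10.5 (SD, n = 4) of the summed TPM of the pair in summer and 33.7% ± 12.9 (SD, n = 4) in winter. Among 22 cadherin genes it held 31.7% and 13.4%, and *CDH1* held 8.44% and 27.6%.

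The catenins, which serve both cadherins, spanned narrower ranges. *CTNNB1* (ENSBTAG00000016420) was at 163, 185, 226 and 216 scaled TPM in the summer libraries and at 135, 171, 159.7 and 141 in the winter libraries. Only summer replicate 1 lay within the winter range. The means of *CTNNB1* were 197 ± 28.8 (SD, n = 4) and 152 ± 16.8 (SD, n = 4). Its log2 fold change was 0.37 with a 95% interval of 0.06 to 0.69 (adjusted p = 0.0867 in limma).

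*CTNNA1* (ENSBTAG00000014182) had 108, 114, 138 and 119 scaled TPM in the summer libraries and 133, 124, 99.7 and 113 in the winter libraries. The ranges lay on top of each other, with means of 119.7 ± 12.8 (SD, n = 4) and 117 ± 14.3 (SD, n = 4). The 95% interval of its log2 fold change, -0.27 to 0.33 around 0.03, leaves out a change of 2-fold in either direction. The ratio of *CTNNB1* to *CTNNA1* was 1.64 in summer and 1.29 in winter, a log2 difference of 0.34 (exact permutation p = 0.0571, adjusted p = 0.0914).

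*TJP1* (ENSBTAG00000015398), which encodes ZO-1, had 19.0, 19.6, 28.0 and 15.4 scaled TPM in the summer libraries and 21.2, 22.7, 18.0 and 29.1 in the winter libraries. The seasons overlapped, and the extremes of both were single libraries, summer replicates 3 and 5 and winter replicates 4 and 5. The means were 20.5 ± 5.32 (SD, n = 4) and 22.8 ± 4.67 (SD, n = 4), and the log2 fold change was -0.15 (95% interval -0.64 to 0.33, adjusted p = 0.656 in limma). Against *CTNNB1* in the same library, the log2 ratio of *TJP1* differed by -0.54 (exact permutation p = 0.0857, adjusted p = 0.0980). On the deposited TPM *CTNNB1*, *CTNNA1* and *TJP1* were each called higher in summer (1.82, 1.47 and 1.05), again beside a median of 0.89 for all tested genes.

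Levels were also set against *CTNNB1*, which is common to cadherin complexes. *GJA1* was 10.7, 4.84, 3.57 and 3.60 times *CTNNB1* in the summer libraries and 1.498, 1.14, 1.56 and 1.14 times in the winter libraries. The seasons did not overlap, and the log2 difference was 1.95 (exact permutation p = 0.0286, adjusted p = 0.0762). The log2 difference was 1.49 for *CDH2* (exact permutation p = 0.0571, adjusted p = 0.0914) and -1.58 for *CDH1* (exact permutation p = 0.0857, adjusted p = 0.0980).

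The order of the 8 genes by mean level, on a scale per transcript length, began alike in both seasons. *GJA1* led, followed by *CTNNB1* and then *CTNNA1*, in all 8 libraries, though the ranges of *GJA1* and *CTNNB1* overlapped in winter. In summer *CDH2* followed, then *TJP1*, *GJA4*, *CDH1* and *GJC1*. From *CDH2* to *CDH1* the ranges of each neighbouring pair overlapped, and that of *GJC1* was below all of them. In winter *CDH1* came after the catenins, then *TJP1*, *CDH2*, *GJA4* and *GJC1*, and every neighbouring pair from *CDH1* down overlapped.

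Few of the other genes of adherens junctions were called. Of 34 other cadherins, catenins, nectins and genes listed with them, such as *VCL* and *AFDN*, 23 were tested. Of these, 4 were called higher and none lower, and at an unadjusted p under 0.05 in limma 6 were higher and 1 was lower. Calls were 17.4% of the tested genes of this list, beside 12.8% of all tested genes. Over all tested genes, 6.14% were called higher and 6.67% lower. The median log2 fold change of the list was 0.42. *CDH12*, a cadherin of the brain, was at 38.7 ± 10.9 (SD, n = 4) scaled TPM in summer against 9.24 ± 4.68 (SD, n = 4) in winter (log2 fold change 2.04, adjusted p = 0.00309), with means below those of *CDH2* in both seasons. *NECTIN2*, an adhesion molecule that joins cadherins at adherens junctions, was at 95.5 ± 39.1 (SD, n = 4) and 35.1 ± 8.95 (SD, n = 4). Its log2 fold change was 1.32 (adjusted p = 0.0196), with summer replicate 3, at 39.5, inside the winter range. *NECTIN3* (1.38, adjusted p = 0.0218) and *CDH8* (1.07, adjusted p = 0.0376) were the other called genes. *JUP* (plakoglobin), a relative of β-catenin that also serves desmosomes, was the most abundant of the list at 129.6 ± 21.1 (SD, n = 4) and 132 ± 11.7 (SD, n = 4) and was not called.

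Tight junction genes went both ways. Of 44 listed besides *TJP1*, 42 were in the table and 30 were tested, 3 were called higher and 2 lower, and their median log2 fold change was -0.11. In either direction 16.7% of the tested ones were called, beside 12.8% of all tested genes. *CLDN15*, a claudin that forms paracellular pores in the gut, was at 1.77, 9.49, 4.45 and 9.04 scaled TPM in the summer libraries and at 186, 43.1, 45.3 and 103 in the winter libraries. It fell by 3.65 on the log2 scale (adjusted p = 0.00171), with no overlap. It was highest in winter replicates 1 and 5, where *CDH1* and the epithelial marker sum were highest too. *CGNL1* (paracingulin), a junction protein at the actin belt, was also lower in summer, at 1.35 ± 1.14 (SD, n = 4) and 5.26 ± 2.23 (SD, n = 4), with a log2 fold change of -1.47 (adjusted p = 0.0195). *CLDND1*, a claudin-domain protein, was higher, at 52.4 ± 13.2 (SD, n = 4) and 20.0 ± 4.15 (SD, n = 4), with a log2 fold change of 1.34 (adjusted p = 0.00296). *CLDN7*, an epithelial claudin, was called higher with a log2 fold change of 2.21 (adjusted p = 0.0166), although winter replicate 4, at 17.0, lay within the summer range. *CGN* (cingulin), which binds ZO-1, was at 44.8 ± 22.0 (SD, n = 4) and 60.6 ± 17.1 (SD, n = 4) and was not called.

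Desmosome genes were mostly low. Of 13 genes listed and found, 8 were tested, none was called higher by limma (none at an unadjusted p under 0.05 either) and 1 was called lower, and the median log2 fold change was 0.28. That 1 call was 12.5% of the tested genes of the list, beside 12.8% of all tested genes. The gene called lower was *PKP1*, a plakophilin of stratified epithelia, at 0, 0.430, 0.167 and 0 scaled TPM in summer and 3.83, 1.71, 4.31 and 3.25 in winter (adjusted p = 0.00223). The most abundant were *PKP4*, at 11.2 ± 2.99 (SD, n = 4) and 8.78 ± 1.96 (SD, n = 4), and *PERP*, a desmosomal membrane protein, at 9.68 ± 3.36 (SD, n = 4) and 10.7 ± 8.59 (SD, n = 4). Neither was called.

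Of the actin, actin linker and Snail and ZEB repressor genes, 10 of 12 in the table were tested, with 1 called in each direction and a median of -0.37. Together these calls were 20% of the tested genes of the list, beside 12.8% of all tested genes. *ACTB*, β-actin, was at 7543 ± 2329 (SD, n = 4) scaled TPM in summer against 3326 ± 248 (SD, n = 4) in winter (log2 fold change 1.13, adjusted p = 0.00598), with no overlap. *ACTN1*, the actin crosslinker α-actinin, went the other way at 6.74 ± 0.788 (SD, n = 4) and 17.2 ± 7.82 (SD, n = 4) (-1.13, adjusted p = 0.0273). *ACTG1*, γ-actin, was at 8250 ± 1555 (SD, n = 4) and 4774 ± 396 (SD, n = 4), past the adjusted p at 0.0117 but under 2-fold, with a log2 fold change of 0.77.

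**Figure D4:**
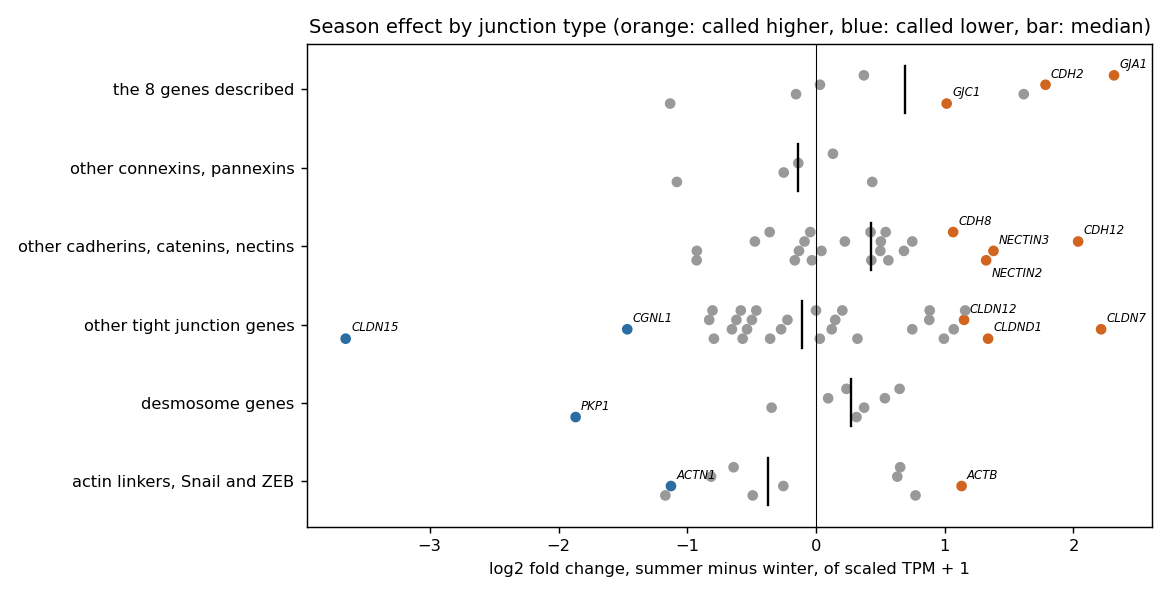
Log2 fold change (summer minus winter, horizontal axis, on the scaled TPM + 1 scale) of every tested gene of 6 groups of junction genes, 1 point per gene, orange where called higher, blue where called lower, with a bar at each group's median. The medians run from -0.37 for actin linkers, Snail and ZEB (a group that also holds *TWIST1*) to 0.69 for the 8 genes described. *CLDN15* is farthest to the left at -3.65.

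The genes whose pattern over the 8 libraries lay nearest to that of *GJA1* were found by the root mean square difference of log2(scaled TPM + 1) after centring each gene, among the 8622 tested genes that averaged 5 scaled TPM or more. Among the nearest were *ARRDC3*, an arrestin-domain protein (0.25), *H3-3B*, a gene of histone H3.3 (0.36), and *C7H5orf15* (0.36). For *CDH2* they were *EPDR1* (0.31), *TMEM41B*, a lipid scramblase of the endoplasmic reticulum (0.32), and *GGH*, a folate hydrolase (0.32). For *CDH1* they were the tetraspanin *TSPAN15* (0.33), the interferon regulatory factor *IRF7* (0.34) and *HACD4*, an enzyme of fatty acid elongation (0.34). None of these genes is in the junction lists used here. The 3 named neighbours of *GJA1* and the 3 of *CDH2* were all called higher in summer, which follows from the likeness to those genes, and of the 3 neighbours of *CDH1* *HACD4* was called lower.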

How the data were processed

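Polyadenylated RNA of 8 granulosa cell libraries was sequenced. TPM was computed by the authors and deposited as 1 table of the series. Per the methods, reads were trimmed, mapped and normalized in CLC Genomics Workbench, while the submitters' processing notes name Bowtie2 2.2.2, bcl2fastq, DESeq2 and the build ARS-UCD1.2, and the methods another build. Every deposited library sums to 1000000 TPM. Reads are given only as an average over libraries, so the depth of each library is unknown and counting error was left out. Reads shared between paralogs or overlapping genes cannot be separated.

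Scaled TPM was made by leaving out 13 mitochondrial messages, setting the rest to 1000000 and applying a TMM factor (30% of M and 5% of A trimmed). The 13046 of 26804 genes whose zFPKM exceeded -3 in each of the 4 libraries of either season were tested with limma 3.58.1 in R 4.3.3 (lmFit, eBayes, trend). The model had log2(scaled TPM + 1) as response and no term but season, and p-values were adjusted by Benjamini-Hochberg over all tested genes. Intervals use limma's moderated degrees of freedom. The fit was tested on simulated data. Ratios between genes of a library were tested by exact permutation, two-sided, over 70 assignments in Python 3.11.15. Alternatives changed the scaling, the pseudocount, the filter, the variance model, library weights, the replicate block, a mitochondrial covariate and the libraries included. Figures were drawn with matplotlib 3.10.9.

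The 8 genes and all gene lists were chosen with earlier results of these data known. Named beside them are, from each other list, up to 4 called genes of smallest adjusted p and the 2 of highest mean, and the nearest patterns to *GJA1* (5 genes), *CDH2* and *CDH1* (3 each), of which some are not reported here. *EPCAM*, *KRT7*, *KRT8*, *KRT18*, *KRT19*, *UPK3B*, *MSLN*, *FOXL2*, *INHA*, *GSTA1*, *SERPINE2*, *INHBA*, *FST*, *ZP2*, *ZP4*, *DPPA3* and *NPM2* were named after their values were seen. Levels per 1000 of a marker sum were added after seeing the data. Markers came from textbook lists of each cell type. Theca markers summed to 139 to 327 scaled TPM in summer and 74.4 to 485 in winter, and endothelial markers to 3.39 to 8.21 and 4.53 to 12.6, with none of either list called (limma, unadjusted p under 0.05: 1 theca gene higher and 1 endothelial gene lower). Sequences and coordinates were not used here.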

Additional observations from a re-analysis of the deposited data

Results flagged for a closer look

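In each season of 4 libraries, the gap of the highest or lowest library to its nearest neighbour was set against the whole range, and a share above Dixon's 95% critical value was taken as far from the rest. Of 32 such groups of values (8 genes and 8 ratios in each season), 2 passed, and chance passes about 1 in 20. Summer replicate 1 had 1741 scaled TPM of *GJA1* where the other summer libraries had 777 to 897, a share of 0.875. Without it, the log2 fold change of *GJA1* was 2.05 and the gene was still called. Winter replicate 4 had a log2 ratio of *GJA1* to *GJA4* of 9.54, a share of 0.864, since its *GJA4* was at 0.333 scaled TPM.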

How the results depend on the processing

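*GJA1* was called under all 21 alternatives, at log2 fold changes of 1.77 to 3.77, and *CDH2* under all but the mitochondrial covariate. On the deposited TPM the log2 fold changes were 1.82 (*GJA4*), 0.86 (*GJC1*), 0.27 (*CDH1*), 1.82 (*CTNNB1*), 1.47 (*CTNNA1*) and 1.05 (*TJP1*), with 5529 genes called higher and 81 lower beside a median of 0.89. Without the TMM factor they were 1.84 (*GJA4*) and 0.13 (*TJP1*), with 1570 genes called higher and a median of 0.28. *GJC1* was at 0.99 with median-of-ratios factors, 0.45 with a pseudocount of 5 (388 genes higher, 403 lower) and 1.06 with the mitochondrial covariate, where *CDH2* was at 1.01, *TJP1* at 0.0032, and 99 and 169 genes were called. With genes averaging under 5 scaled TPM left out, *GJC1* was not tested and 511 genes were lower. *CTNNA1* was at -0.0001 with median-of-ratios factors, -0.023 with quantile normalization and -0.024 with library weights. With each library left out, *GJC1* ran from 0.92 to 1.154, *GJA4* from 1.01 to 1.99, *CTNNA1* from -0.0445 to 0.092, the log2 ratio of *GJA1* to *GJA4* from -0.38 to 1.32 and the genes called higher from 504 (without summer replicate 1) to 1003. The cause of these moves was not tested.

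With the replicate number as a block (replicate block), *CTNNA1* was at -0.023, *GJA1* at 2.47, *CDH2* at 1.72, *GJC1* at 1.25 and *GJA4* at 0.67 (adjusted p = 0.343 in limma), with 691 genes higher and 735 lower, and no call among the 8 genes changed. The labels do not say whether equal numbers mark the same cows, so the main fit did not take them as pairs. Deviations of same-numbered libraries correlated at 0.04, 0.16 and 0.11 (replicates 1, 3 and 5), and those of other-numbered libraries at 0.0466 or less. Of the 6 libraries with a shared number, 5 correlated best with their own. Pairing by number is thus not excluded, and the main p-values leave it out. The 3 pairs gave log2 ratio differences of 3.34 for *CDH2* to *CDH1*, 2.05 for *GJA1* to *CTNNB1* and 1.73 for *GJA1* to *GJA4* (0.16 unpaired), and a sign-flip test of 3 pairs cannot go below 0.25. The depth of each library is unknown, so counting error of the lowest genes, such as *GJC1*, could not be given.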
